A study of Homo sapiens with 16 samples.

Results

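The endoplasmic reticulum (ER) chaperones described here are 10 genes, HSPA5, HSP90B1, DNAJB9, HERPUD1, PDIA4, PDIA6, CALR, SDF2L1, DNAJC3 and HYOU1, taken by symbol from the 37864 genes of the count table. All 10 passed the filter on low counts, as did 17991 genes in all. Their RNA was measured by sequencing in MDA-MB-231 cells, an established human triple-negative breast cancer line, after DMSO (the solvent control), afatinib, paclitaxel, or both drugs together (the combination), with 4 libraries in each group and 16 in all. Afatinib is an irreversible inhibitor of the EGFR family of kinases, and paclitaxel stabilises microtubules. All groups shared the line and its serum-containing medium, and doses and exposure times are not given in the sources used here. The series' title concerns the joint lethality of the drugs. Whether the 4 replicates of a group come from different cultures is not stated, and the spread behind each p-value may therefore be technical.

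Proteins that enter the secretory pathway fold in the ER. HSPA5 (BiP, the ER Hsp70) binds unfolded chains in cycles that J-proteins start and nucleotide exchange factors end, disulfide isomerases form and shuffle disulfide bonds, and calreticulin holds glycoproteins by their sugars. When unfolded protein accumulates, the unfolded protein response, sensed by IRE1 (gene ERN1), PERK (EIF2AK3) and ATF6, raises transcription of most of these genes through ATF6 and XBP1, and chains that fail to fold are returned to the cytosol for degradation.

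By the labelled RNA concentrations the libraries of each group form a higher set (replicates 1 and 2) and a lower set (replicates 3 and 4), and these sets stand apart in nearly everything described below. The set was a term of the fit, and the values inside each set stand beside the called changes of the 10 genes against DMSO. Calls of the other genes named below are given from this fit alone, without within-set values or alternative fits. Each library held between 28.4M and 48.1M counts (M, mega), the fewest in Paclitaxel replicate 4. Mitochondrially encoded genes took on average 2.32 to 3.32% of counts in replicates 1 and 2 of the groups and 4.40 to 8.74% in replicates 3 and 4, from 4.40% in DMSO to 8.74% in the combination. Their part in the results was not tested. The line's markers VIM (1117 ± 71.6 CPM in DMSO, SD, n = 4), CD44 (1263 ± 416), EGFR (725 ± 279) and KRT18 (289.8 ± 43.5) were abundant, while CDH2 stood at 0.267 ± 0.0778 CPM. Of the markers of other cells, luminal ESR1 was at 0.242 ± 0.0687 CPM, CDH1 at 0.173 ± 0.112, EPCAM at 8.63 ± 1.57 and GATA3 at 12.9 ± 1.14, the blood marker PTPRC was at 0.0513 ± 0.0266, CD3E had 0 counts in DMSO, and the fibroblast marker COL1A1 was at 14.1 ± 3.05. Counts per DMSO library were 174 to 298 for luminal PGR, 2 to 10 for KRT19 and 0 to 4 for the blood marker CD68. The fibroblast markers LUM, COL3A1 and PDGFRA had 0 to 2, 2 to 4 and 0 to 1. The endothelial markers PECAM1, VWF, CDH5 and KDR had 57 to 71, 12 to 21, 32 to 98 and 51 to 155.

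The promoters were searched for the elements through which the unfolded protein response acts, because most of these genes are known as targets of that response. All 10 genes matched entries of the RefSeq promoter table (GRCh38.p14), and the 250 bases before each start were read on both strands. The ER stress element (ERSE, CCAAT and CCACG with 9 bases between them) was found in HSPA5, HSP90B1, PDIA6 and CALR. It stood in 25 of all 27305 genes with a promoter entry, or 0.0916%. The shorter ERSE-II (ATTGG and CCACG with 1 base between them) was found in HYOU1, HERPUD1 and SDF2L1, against 18 genes in all, or 0.0659%. These sites are shown with 5 flanking bases on each side, each read along the strand of its gene and with the element in capitals. Sites marked reverse hold the element on the other strand.
HSPA5 ERSE, 48 to 66 bases before the start: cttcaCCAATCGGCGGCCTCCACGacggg
HSP90B1 ERSE, 176 to 194 bases before: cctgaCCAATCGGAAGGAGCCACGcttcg
HSP90B1 ERSE, reverse, 71 to 89 bases before: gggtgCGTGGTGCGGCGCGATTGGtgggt
PDIA6 ERSE, 68 to 86 bases before: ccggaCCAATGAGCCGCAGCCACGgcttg
CALR ERSE, reverse, 207 to 225 bases before: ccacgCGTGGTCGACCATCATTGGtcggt
HYOU1 ERSE-II, reverse, 175 to 185 bases before: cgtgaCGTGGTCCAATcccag
HYOU1 ERSE-II, reverse, 69 to 79 bases before: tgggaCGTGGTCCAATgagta
HERPUD1 ERSE-II, 107 to 117 bases before: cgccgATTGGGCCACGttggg
SDF2L1 ERSE-II, reverse, 178 to 188 bases before: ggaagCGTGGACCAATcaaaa
With their flanks these sites lie on GRCh38.p14 at chr9:125241386-125241414 (HSPA5, minus strand), chr12:103930211-103930239 and chr12:103930316-103930344 (HSP90B1, plus), chr2:10812848-10812876 (PDIA6, minus), chr19:12938379-12938407 (CALR, plus), chr11:119057375-119057395 and chr11:119057269-119057289 (HYOU1, minus), chr16:56932020-56932040 (HERPUD1, plus) and chr22:21642109-21642129 (SDF2L1, plus). The HSP90B1 and PDIA6 sites fall inside the gene spans of GENCODE, which begin farther upstream than the RefSeq starts, and the other sites lie upstream of both. DNAJB9, PDIA4 and DNAJC3 held neither set of letters in this window. The core TGACGTGG, bound by XBP1 and ATF6, was found in HYOU1, where it overlaps the farther ERSE-II site, and in 0.780% of all genes. The plain CCAAT box, which is part of both elements, was in all 10 genes and in 37.0% of all genes. The members were searched as known targets of the response and are counted among all genes, so these shares are no test of enrichment. These are matches of letters and show no binding.

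Levels between the genes are compared as CPM (counts per M counts of the library, scaled by TMM factors) per kilobase of the length in the table. In DMSO the calcium-binding CALR was highest at 611 ± 184 CPM per kilobase (SD, n = 4), before HSPA5 at 276 ± 83.00 and HSP90B1 at 154 ± 48.2. PDIA4 (104 ± 36.1), HYOU1 (88.3 ± 30.7) and PDIA6 (58.9 ± 18.1) formed the middle. DNAJC3 (26.9 ± 7.62), SDF2L1 (26.1 ± 2.60), HERPUD1 (14.2 ± 1.60) and DNAJB9 (4.52 ± 1.12) were the lowest. Each gene stood above the next in all 16 libraries, except that DNAJC3 stood above SDF2L1 in 10 of 16, so this pair is not ordered. DNAJB9 had 217 to 670 counts per library, the fewest of the 10 genes. From the lowest to the highest library the levels spanned a ratio of 3.18 for HSPA5 and for DNAJB9, 2.60 for PDIA4 and HYOU1, and 1.39 for SDF2L1.

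**Figure D1:**
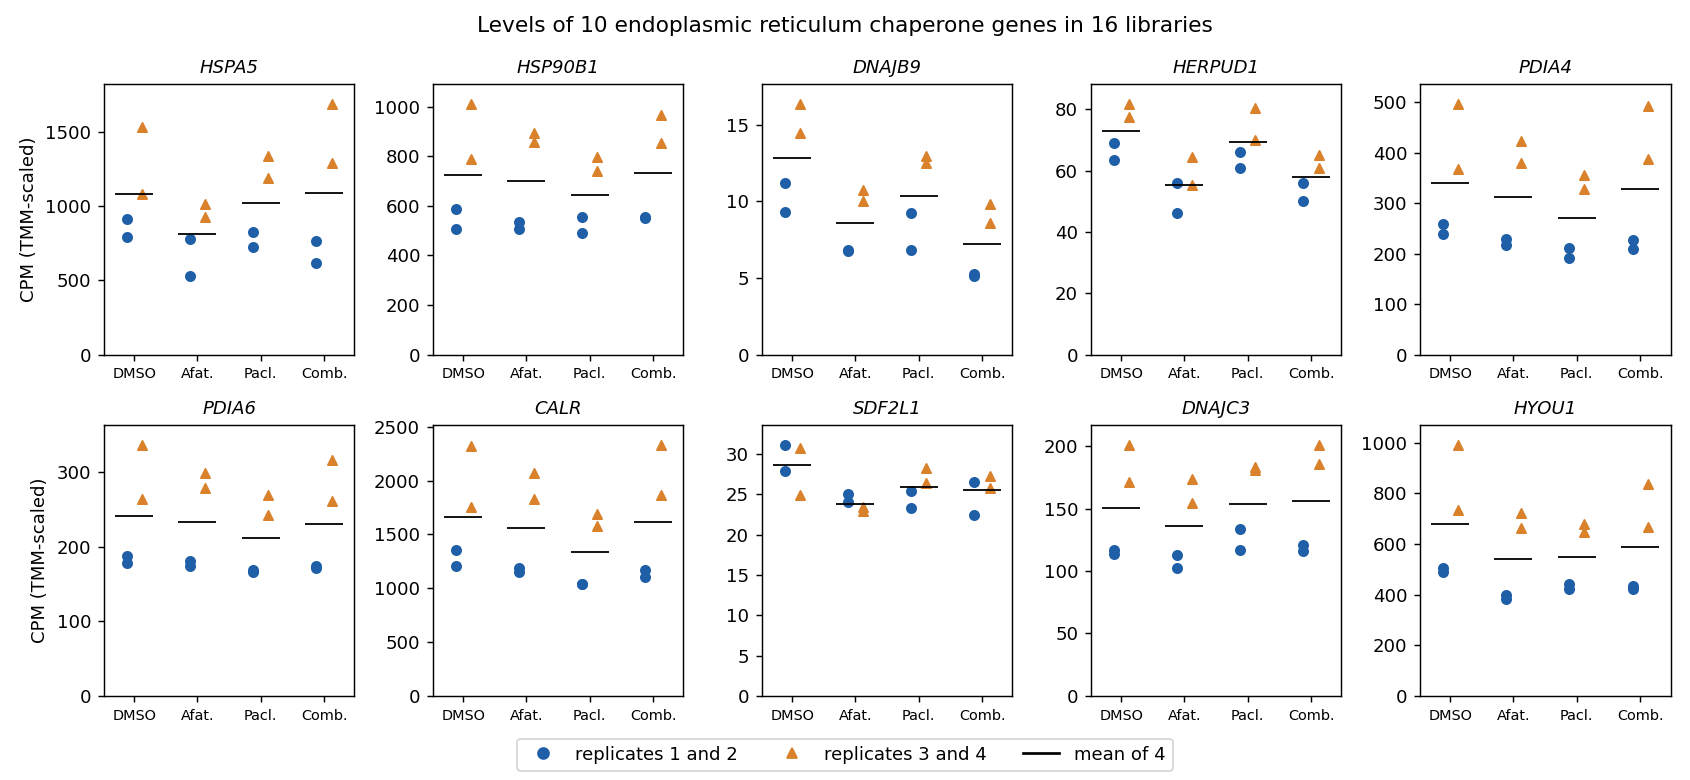
Level of each ER chaperone gene (y axis, TMM-scaled CPM from 0) in the 16 libraries by treatment (x axis). Circles are replicates 1 and 2, triangles replicates 3 and 4, and bars the mean of 4. Within every treatment the triangles lie above the circles for 8 of the 10 genes, the exceptions being SDF2L1 and, with afatinib, HERPUD1, and the DNAJB9 bar falls from 12.8 ± 3.19 CPM in DMSO to 7.20 ± 2.36 in the combination (SD, n = 4).

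Against DMSO, every called change of an ER chaperone was a decrease. With afatinib, DNAJB9, HERPUD1, HYOU1 and SDF2L1 fell, 4 of 10, where 19.1% of all genes tested were called, 10.1% lower and 9.00% higher (edgeR quasi-likelihood test, Benjamini-Hochberg adjusted p under 0.05). With paclitaxel, PDIA4, DNAJB9, CALR and HYOU1 fell, 4 of 10, beside 20.5% of all genes (11.9% lower and 8.65% higher). In the combination DNAJB9, HERPUD1 and HYOU1 fell, 3 of 10, beside 38.0% of all genes (19.5% lower and 18.5% higher). The median log2 change of the 10 genes was −0.20 with afatinib and −0.17 with paclitaxel, against −0.075 in the combination, and that of all genes lay within 0.005 of 0 each time. These 3 comparisons share the DMSO libraries. In bulk RNA, less RNA per cell and fewer cells of a kind cannot be told apart. Without the concentration set in the fit, 0 of the 10 genes was called in any of the 3 comparisons, although the sizes hardly moved (DNAJB9 with afatinib, −0.58, adjusted p = 0.365), and the calls over all genes dropped to 2.11% with afatinib and 3.47% with paclitaxel, and to 12.8% in the combination. With the logarithm of the RNA concentration as a covariate in place of the set (called the concentration covariate below), 6 of the 10 genes were called for afatinib, 6 for paclitaxel and 8 for the combination, all lower, beside 12.8, 30.1 and 39.0% of all genes. Most paclitaxel and combination values were then larger in size, as given below for every gene but SDF2L1, whose values hardly moved.

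**Figure D2:**
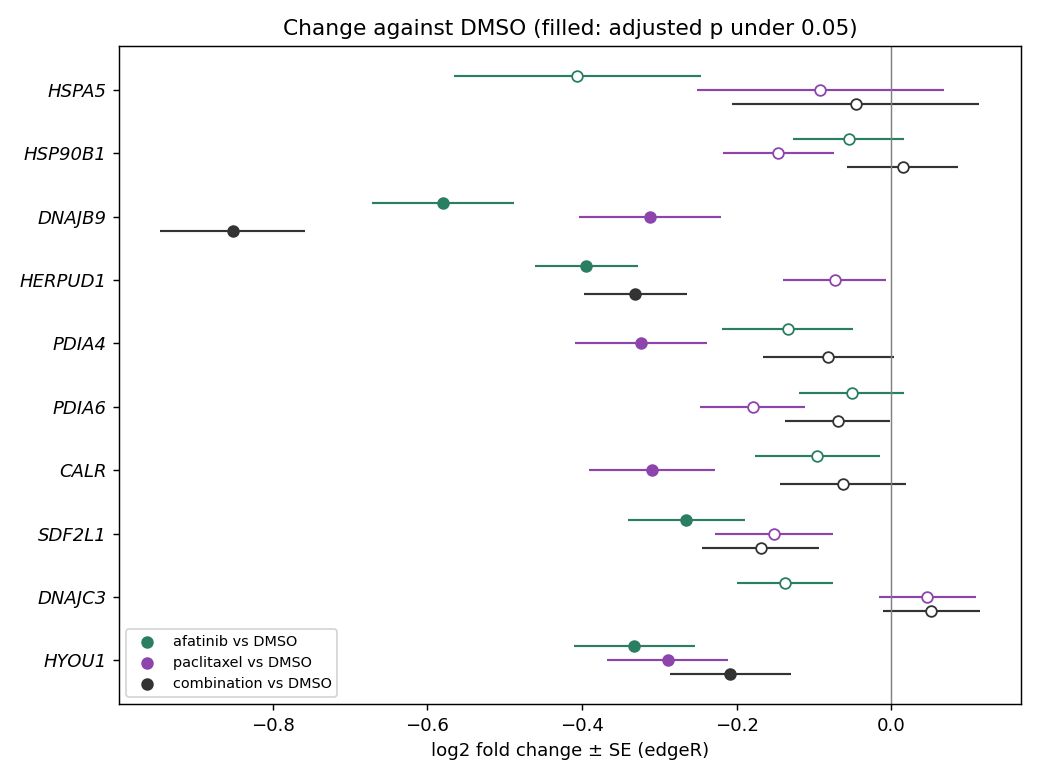
Log2 fold change against DMSO (x axis, with SE) for each ER chaperone gene (y axis) after afatinib, paclitaxel and the combination, 4 libraries a group; filled points have an adjusted p under 0.05. The 11 filled points all lie below 0, and the lowest is DNAJB9 in the combination at −0.85.

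Among the large ATP-driven chaperones, HSPA5 (ENSG00000044574, chr9:125234853-125241330, minus strand) is the central one. Its level in replicates 1 to 4 was 915, 791, 1083 and 1532 CPM in DMSO and 777, 532, 1015 and 924 CPM with afatinib. After paclitaxel it was 829, 726, 1192 and 1337 CPM, and in the combination 767, 616, 1294 and 1691. Both afatinib libraries lay below both DMSO libraries in each set, which 14.9% of all genes also showed, while the combination was below DMSO in replicates 1 and 2 and overlapped it in replicates 3 and 4. HSPA5 changed by −0.41 ± 0.16 on the log2 scale with afatinib and did not pass the test (adjusted p = 0.0971; −0.37 within replicates 1 and 2 and −0.44 within replicates 3 and 4). With the replicate number as a block it passed (adjusted p = 0.0189), as it did without Afatinib replicate 1 (−0.55, 0.0147), without DMSO replicate 3 (0.0420) or without Combination replicate 2 (0.0467), and with the concentration covariate (−0.57, adjusted p = 0.0295). It did not pass on the authors' log2 table (−0.52, adjusted p = 0.153) or in the other fits that left out 1 library (adjusted p up to 0.232). For paclitaxel the change was −0.092 (95% interval −0.44 to 0.25) and for the combination −0.046 (−0.39 to 0.30; −0.30 and 0.19 within the sets). With the concentration covariate these values were −0.42 (adjusted p = 0.0799) and −0.41 (adjusted p = 0.075), neither called. Processed pseudogenes that are 92.6% (over 2026 bases) and 93.7% (over 1977 bases) identical to HSPA5 each held 1.13% of its counts, so a small part of its reads is uncertain.

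HSP90B1 (ENSG00000166598, chr12:103930107-103953645, plus strand) encodes GRP94, the Hsp90 of the ER. It stood at 508, 586, 791 and 1012 CPM in DMSO and 508, 535, 892 and 859 CPM with afatinib. In paclitaxel it read 489.6, 556, 741 and 796 CPM and in the combination 554, 551, 855 and 965. The groups overlapped in at least 1 set in every comparison, and none passed: −0.055 ± 0.072 with afatinib, −0.15 ± 0.072 with paclitaxel (adjusted p = 0.164) and 0.015 ± 0.072 in the combination. With the concentration covariate HSP90B1 was called lower with paclitaxel (−0.46, adjusted p = 0.00405) and in the combination (−0.34, adjusted p = 0.0205), and with no filter on low counts it was called lower with paclitaxel (−0.18, adjusted p = 0.0349). Processed pseudogenes of HSP90B1 held 0.130% of its counts or less.

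HYOU1 (ENSG00000149428, chr11:119044189-119057202, minus strand), which encodes GRP170 and exchanges the nucleotide of HSPA5, fell in all 3 treatments. It stood at 489, 504, 734 and 991 CPM in DMSO and 400.3, 381, 722 and 661 CPM with afatinib. It stood at 421, 442, 647 and 679.6 CPM with paclitaxel and 421, 434, 666 and 836 CPM in the combination. Within each set both libraries of either single drug lay below both DMSO libraries, and the combination did so in replicates 1 and 2 alone. The change was −0.33 ± 0.078 with afatinib (adjusted p = 0.00395; −0.34 and −0.32 within the sets) and −0.29 ± 0.078 for paclitaxel (−0.20 and −0.38 within the sets, adjusted p = 0.00952). In the combination it was −0.21 ± 0.078 (adjusted p = 0.038; −0.21 and −0.20 within the sets). This last call was lost without any 1 of 8 libraries, Afatinib replicates 1 and 2, Combination replicates 1 to 3 and DMSO replicates 1, 2 and 4, and reached −0.12 (adjusted p = 0.212) without DMSO replicate 4. The paclitaxel call was also lost without DMSO replicate 4 (−0.20, adjusted p = 0.0527). With the concentration covariate the decrease of HYOU1 was larger for afatinib (−0.52, adjusted p = 0.004), paclitaxel (−0.64, adjusted p = 0.000566) and the combination (−0.60, adjusted p = 0.000463). On the authors' log2 table the afatinib call was lost (−0.43, adjusted p = 0.0998), while paclitaxel (−0.60, adjusted p = 0.035) and the combination (−0.46, adjusted p = 0.0347) passed. An antisense gene shares 8.66% of the HYOU1 exon bases and had 0 counts.

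Of the J-proteins, which start the ATP cycle of HSPA5, DNAJB9 (ENSG00000128590, chr7:108569568-108574850, plus strand) moved furthest. It encodes ERdj4, which also holds IRE1 inactive together with HSPA5. Its level was 9.29, 11.2, 14.5 and 16.4 CPM in DMSO and 6.82, 6.78, 10.7 and 10.1 CPM with afatinib. With paclitaxel it was 6.84, 9.22, 12.9 and 12.5 CPM and in the combination 5.15, 5.26, 8.59 and 9.80. In each set both libraries of every treatment lay below both DMSO libraries, which 14.9% of all genes showed for afatinib, 14.3% for paclitaxel and 19.7% for the combination. DNAJB9 fell by 33.1% with afatinib (−0.58 ± 0.092 on the log2 scale, adjusted p = 8.25e-05; −0.58 within replicates 1 and 2 and −0.57 within replicates 3 and 4). It fell by 19.4% with paclitaxel (−0.31 ± 0.092; −0.35 and −0.27 within the sets; adjusted p = 0.016) and by 44.6% in the combination (−0.85 ± 0.094, adjusted p = 7.25e-08; −0.97 and −0.74 within the sets). The afatinib and combination calls held without any single library, with adjusted p at most 0.000824 and 1.54e-06. The paclitaxel call was lost without DMSO replicate 2 (−0.24, adjusted p = 0.0866) or Paclitaxel replicate 1 (−0.24, 0.0812), and on the authors' log2 table (−0.51, adjusted p = 0.0815). It was −0.59, adjusted p = 0.00406 with the concentration covariate. The afatinib and combination values of DNAJB9 were −0.74 (adjusted p = 0.00128) and −1.18 (adjusted p = 4.22e-06) in that fit. THAP5 and PNPLA8, on the opposite strand, share 6.45 and 3.49% of the DNAJB9 exon bases. They had 14881 and 15473 counts over all libraries, against 6479 of DNAJB9, and reads in the shared bases cannot be assigned without strand, so the DNAJB9 counts are uncertain to that extent.

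DNAJC3 (ENSG00000102580, chr13:95677139-95794989, plus strand) encodes p58IPK, a J-protein of the ER lumen known as an inhibitor of PERK. It read 116, 114, 171 and 201 CPM in DMSO and 102, 113, 174 and 154 CPM with afatinib. After paclitaxel it read 117, 133, 181 and 183 CPM and in the combination 116, 121, 186 and 201. No comparison with DMSO passed, and each treatment overlapped DMSO in at least 1 set: −0.14 ± 0.062 with afatinib (adjusted p = 0.128), 0.046 ± 0.062 with paclitaxel (95% interval −0.082 to 0.17) and 0.052 ± 0.062 in the combination (−0.077 to 0.18). With the concentration covariate DNAJC3 was called lower with afatinib (−0.29, adjusted p = 0.0488), and the combination value turned to −0.27, adjusted p = 0.0384. The paclitaxel value turned to −0.24 in that fit and was not called (adjusted p = 0.0719).

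SDF2L1 (ENSG00000128228, chr22:21642261-21644298, plus strand) forms a complex with a J-protein and HSPA5. Unlike the other 9 genes it did not differ detectably between the concentration sets. Its level was 27.9, 31.1, 24.96 and 30.7 CPM in DMSO and 25.1, 23.99, 23.4 and 22.9 CPM with afatinib. It was 25.4, 23.4, 26.4 and 28.3 CPM with paclitaxel and 22.4, 26.6, 25.7 and 27.3 CPM in the combination. Afatinib libraries lay below DMSO within each set, and the other treatments overlapped DMSO in replicates 3 and 4. SDF2L1 fell by 16.8% with afatinib (−0.27 ± 0.076, adjusted p = 0.0154; −0.26 and −0.27 within the sets). The test no longer passed when Afatinib replicate 4 was left out (adjusted p = 0.0571) or when DMSO replicate 2 was (0.0705). On the authors' log2 table the SDF2L1 call was also lost (−0.25, adjusted p = 0.0794). Its value was −0.15 ± 0.076 with paclitaxel (adjusted p = 0.171) and −0.17 ± 0.076 in the combination (adjusted p = 0.0815), and without DMSO replicate 3 both passed (0.0310 and 0.0128).

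Against DMSO the disulfide isomerase PDIA4 fell with paclitaxel, while PDIA6 passed in no treatment. PDIA4 (ENSG00000155660, chr7:149003062-149028641, minus strand), also known as ERp72, stood at 239, 259, 367 and 497 CPM in DMSO and 229, 216, 424 and 379 CPM with afatinib. It stood at 191, 211, 327 and 356 CPM with paclitaxel and 209.5, 227, 387 and 493 CPM in the combination. Paclitaxel libraries were below DMSO in each set, and the other groups overlapped it in replicates 3 and 4. PDIA4 fell by 20.1% with paclitaxel (−0.32 ± 0.085; −0.31 and −0.33 within the sets; adjusted p = 0.00841). It passed in all 16 fits that left out 1 library, and was larger with the concentration covariate (−0.70, adjusted p = 0.000919) and on the authors' log2 table (−0.65, adjusted p = 0.0434). It was −0.13 ± 0.085 with afatinib (adjusted p = 0.297; 0.0463 without DMSO replicate 3, at −0.22) and −0.081 ± 0.085 in the combination (95% interval −0.26 to 0.095), where the concentration covariate gave a called decrease (−0.52, adjusted p = 0.00564).

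PDIA6 (ENSG00000143870, chr2:10783391-10837977, minus strand), also called P5, is the isomerase that binds HSPA5 and the IRE1 sensor. It read 178, 187, 264 and 336 CPM in DMSO and 180.1, 173, 299 and 279 CPM with afatinib. With paclitaxel it was 166, 168, 242 and 269 CPM, and 174, 171, 261 and 315 CPM in the combination. The paclitaxel value of −0.18 ± 0.068 missed the threshold (adjusted p = 0.0626; −0.12 and −0.23 within the sets) and passed with the replicate block (adjusted p = 0.0233), without DMSO replicate 3 (−0.23, 0.0129) and without Combination replicate 4 (0.0349). It also passed with no filter on low counts (−0.21, adjusted p = 0.00882) and with the concentration covariate (−0.49, adjusted p = 0.00245). Afatinib (−0.051, 95% interval −0.19 to 0.088) and the combination (−0.07, −0.21 to 0.07) did not pass, but the combination did with the concentration covariate (−0.42, adjusted p = 0.0047). ATP6V1C2 on the other strand shares 25.2% of the PDIA6 exon bases and had 439 counts over all libraries, against 152279 of PDIA6.

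CALR (ENSG00000179218, chr19:12938578-12944489, plus strand), the lectin chaperone calreticulin, also fell with paclitaxel. Its level was 1207, 1353, 1752 and 2325 CPM in DMSO and 1192, 1154, 2073 and 1825 CPM with afatinib. It was 1035, 1042, 1582 and 1687 CPM with paclitaxel and 1106, 1169, 1868 and 2331 CPM in the combination. Only paclitaxel lay below DMSO in both sets. CALR fell by 19.3% with paclitaxel (−0.31 ± 0.081; −0.30 and −0.31 within the sets; adjusted p = 0.00757), and no left-out library ended this call (adjusted p at most 0.0421). It was −0.64, adjusted p = 0.000962 with the concentration covariate, and on the authors' log2 table −0.59, adjusted p = 0.0435. The value was −0.096 ± 0.081 with afatinib (95% interval −0.26 to 0.071) and −0.062 ± 0.081 in the combination (−0.23 to 0.10), neither called. The combination value was called with the concentration covariate (−0.44, adjusted p = 0.00947).

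HERPUD1 (ENSG00000051108, chr16:56932048-56944863, plus strand) encodes Herp, a membrane protein of the complex that passes misfolded chains to degradation. It fell with afatinib and in the combination. Its level was 68.9, 63.6, 77.5 and 81.8 CPM in DMSO and 55.8, 46.2, 64.6 and 55.2 CPM with afatinib. Paclitaxel gave 65.9, 60.9, 70.1 and 80.4 CPM and the combination 55.97, 49.98, 60.8 and 65.1. Afatinib and the combination lay below DMSO in both sets, and paclitaxel overlapped it. HERPUD1 fell by 23.9% with afatinib (−0.39 ± 0.066, adjusted p = 0.000146; −0.37 and −0.42 within the sets) and by 20.5% in the combination (−0.33 ± 0.066, adjusted p = 0.000281; −0.32 and −0.34 within the sets), with adjusted p at most 0.00153 and 0.00311 when any 1 library was left out. With paclitaxel it was −0.073 ± 0.066 (adjusted p = 0.485, 95% interval −0.21 to 0.063). The concentration covariate gave −0.45 with afatinib (adjusted p = 0.000793), −0.19 with paclitaxel (0.09) and −0.45 in the combination (0.000254).

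Whether the single drugs differ was tested directly, a comparison added after the values had been seen. Afatinib was below paclitaxel for HERPUD1 (−0.32 ± 0.067, adjusted p = 0.00051; −0.31 and −0.34 within the sets), DNAJB9 (−0.27 ± 0.094, adjusted p = 0.0275) and DNAJC3 (−0.18 ± 0.062, adjusted p = 0.0231), and above it for CALR (0.21 ± 0.081, adjusted p = 0.0416). That is 3 lower and 1 higher of 10, where 36.0% of all genes were called, 17.1% lower and 18.9% higher. The HERPUD1 call held without any single library (adjusted p at most 0.00431). DNAJB9 lost its call without Afatinib replicate 3 or 4 or Paclitaxel replicate 2 or 3 (adjusted p 0.0528 to 0.140), DNAJC3 without Afatinib replicate 1 or 4 or Paclitaxel replicate 2 (0.068 to 0.118), and CALR in 9 of 16 such fits and with DESeq2 (0.0509). With the replicate block 2 more passed, HSPA5 (−0.32, adjusted p = 0.0378) and PDIA4 (0.20, 0.0376). With the concentration covariate DNAJB9 (−0.14, adjusted p = 0.444) and DNAJC3 (−0.05, adjusted p = 0.721) were lost, CALR was 0.37, adjusted p = 0.0217, and PDIA4 (0.37, adjusted p = 0.0351) and PDIA6 (0.28, adjusted p = 0.0455) passed. On the authors' log2 table DNAJB9 (−0.13, adjusted p = 0.629), CALR (0.40, adjusted p = 0.0811) and DNAJC3 (0.026, adjusted p = 0.889) were lost. HSP90B1, PDIA6, SDF2L1 and HYOU1 passed neither the test as designed nor the block, with 95% intervals of −0.058 to 0.24 for HSP90B1, −0.011 to 0.27 for PDIA6, −0.27 to 0.044 for SDF2L1 and −0.20 to 0.12 for HYOU1.

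Against afatinib alone, DNAJB9 was −0.27 ± 0.096 (adjusted p = 0.0353; −0.39 and −0.17 within the sets) and DNAJC3 0.19 ± 0.062 (0.0249; 0.13 and 0.24 within the sets), 1 lower and 1 higher of 10, where 27.4% of all genes were called, 14.3% lower and 13.1% higher. In both sets the combination libraries lay below those of afatinib for DNAJB9 and above them for DNAJC3, which 17.1 and 15.9% of all genes showed. The DNAJB9 call was lost in 6 fits that left out 1 library (Afatinib replicate 1, 2 or 3, Combination replicate 1, 2 or 3; adjusted p 0.0805 to 0.113) and the DNAJC3 call in 3 (Afatinib replicate 1 or 4, Combination replicate 4; 0.0648 to 0.112). The DNAJC3 value nearly vanished with the concentration covariate (0.022, adjusted p = 0.893) and on the authors' log2 table (0.039, adjusted p = 0.857). In the same fits DNAJB9 was −0.44, adjusted p = 0.0251 and −0.37, adjusted p = 0.192. HSPA5 was 0.36 ± 0.16 (adjusted p = 0.119; 0.074 and 0.63 within the sets) and passed with the replicate block (0.36, adjusted p = 0.0276), without Afatinib replicate 1 (0.51, 0.0158) and without Combination replicate 2 (0.49, 0.0237). It shrank and did not pass with the concentration covariate (0.155, adjusted p = 0.543) or on the authors' log2 table (0.20, adjusted p = 0.552).

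Adding afatinib to paclitaxel lowered DNAJB9 and HERPUD1 and raised PDIA4 and CALR. Against paclitaxel alone DNAJB9 was −0.54 ± 0.095 (adjusted p = 0.000164; −0.63 and −0.47 within the sets) and HERPUD1 −0.26 ± 0.066 (0.00573; −0.26 and −0.26 within the sets). Both lay below paclitaxel in each set, as did 14.7% of all genes, and both held without any single library. PDIA4 was 0.24 ± 0.085 (adjusted p = 0.0413; 0.11 and 0.36 within the sets) and CALR 0.25 ± 0.081 (0.028; 0.13 and 0.36 within the sets). These 2 lower and 2 higher of 10 stand beside 24.2% of all genes called, 11.6% lower and 12.6% higher. Without Combination replicate 4 both increases shrank and were lost (PDIA4 0.15, adjusted p = 0.179; CALR 0.16, 0.131). PDIA4 was also lost without Combination replicate 2 or Paclitaxel replicate 1, 3 or 4 (0.0643 to 0.130) and CALR without Paclitaxel replicate 3 or 4 (0.0903 and 0.0598). Both were lost with the concentration covariate (PDIA4 0.19, adjusted p = 0.352; CALR 0.20, adjusted p = 0.257). On the authors' log2 table DNAJB9 (−0.50, adjusted p = 0.0822), HERPUD1 (−0.23, adjusted p = 0.0929), PDIA4 and CALR were all lost. HSP90B1 (0.16 ± 0.072, adjusted p = 0.108) passed with the replicate block (0.16, 0.0444) and without Paclitaxel replicate 2 (0.22, 0.0325).

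The interaction asks whether the combination differs from the sum of both single-drug changes on the log2 scale. It was called in 0 of the 10 genes by edgeR, where 0.884% of all genes were called (0.389% higher and 0.495% lower), and 5 of the 10 had an unadjusted p under 0.05, as did 12.5% of all genes. DESeq2 called 1, HYOU1 (0.42, adjusted p = 0.0238), and the replicate block called the same gene (0.40, 0.0209), while edgeR with no filter on low counts called 3, HYOU1, PDIA4 and CALR (adjusted p 0.000191 to 0.00314). These fits also called more genes in all: 2.04, 2.78 and 1.27% in that order, the last of 37864 genes. All 10 values were above 0, from 0.04 for DNAJB9 to 0.45 for HSPA5, with a median of 0.23 (0.17 and 0.28 within the sets), while 52.5% of all genes were above 0 and their median was 0.012. HYOU1 had 0.41 ± 0.11 (adjusted p = 0.0733; 0.32 and 0.50 within the sets), PDIA4 0.38 ± 0.12 (0.156; 0.27 and 0.47 within the sets) and CALR 0.34 ± 0.11 (0.174; 0.25 and 0.43 within the sets). These 3 were called without DMSO replicate 3 (adjusted p 0.0203 to 0.0399), and HYOU1 without Paclitaxel replicate 2 (0.0452). None of the 3 was called with the concentration covariate (adjusted p 0.157 to 0.281) or on the authors' log2 table (0.461 to 0.578). In these fits HYOU1 was 0.56 and 0.57, and 0.145 and 0.0111% of all genes were called. For DNAJB9 the interval of −0.23 to 0.31 spans 0, and its combination value of −0.85 stands beside −0.58 and −0.31 for the single drugs.

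**Figure D3:**
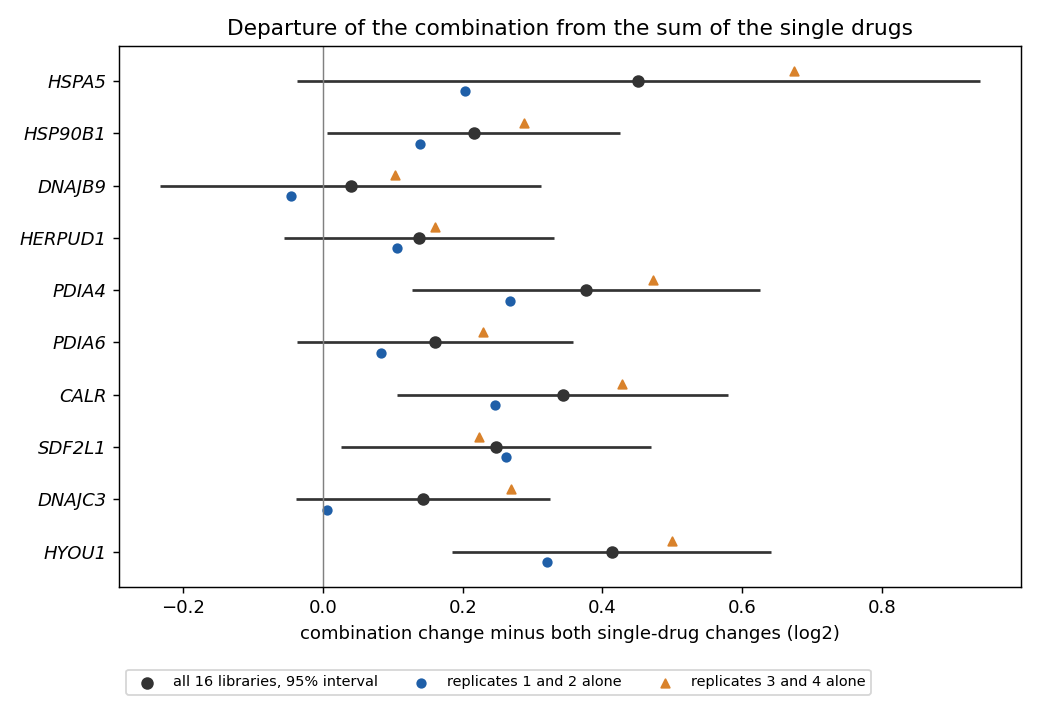
Interaction of each ER chaperone gene (x axis, log2; the combination change minus both single-drug changes) over all 16 libraries with its 95% interval (black), and within replicates 1 and 2 (blue circles) and 3 and 4 (orange triangles). All black points lie right of 0, from 0.04 to 0.45, and 5 of the 10 intervals span 0.

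The difference between the concentration sets exceeded in size every treatment change against DMSO in 7 of the 10 genes, DNAJB9, HERPUD1 and SDF2L1 being the exceptions. In replicates 3 and 4 against 1 and 2, 9 of 10 were higher, where 69.5% of all genes were called, 36.2% higher and 33.3% lower, from 0.25 for HERPUD1 to 0.85 for PDIA4, with HSPA5 at 0.75 ± 0.11. SDF2L1 was 0.026 ± 0.054 (95% interval −0.085 to 0.14). Together the 10 genes took 0.376, 0.395, 0.518 and 0.656% of all counts in DMSO replicates 1 to 4. The shares were 0.369, 0.346, 0.562 and 0.520% for afatinib, 0.342, 0.348, 0.487 and 0.517% for paclitaxel, and 0.362, 0.360, 0.533 and 0.620% in the combination. In all groups replicates 3 and 4 were above replicates 1 and 2. The mean concentration in the sets was 1171 and 311 ng/µl in DMSO, 1002 and 184.3 for afatinib, 387.6 and 252.4 for paclitaxel, and 623.3 and 142.8 for the combination, so it also differed between treatments within a set. The median set difference of all genes ran from −0.17 in the shortest of 4 equal length classes (up to 2087 bases in the table) to 0.16 in the longest. Of the 10 genes SDF2L1 is the shortest at 1099 bases. CALR, at 2714 bases, had a set difference of 0.74 and HERPUD1, at 5155 bases, one of 0.25. The part of gene length was not tested. RNA concentration, mitochondrial share and whatever else separates the sets cannot be told apart.

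**Figure D4:**
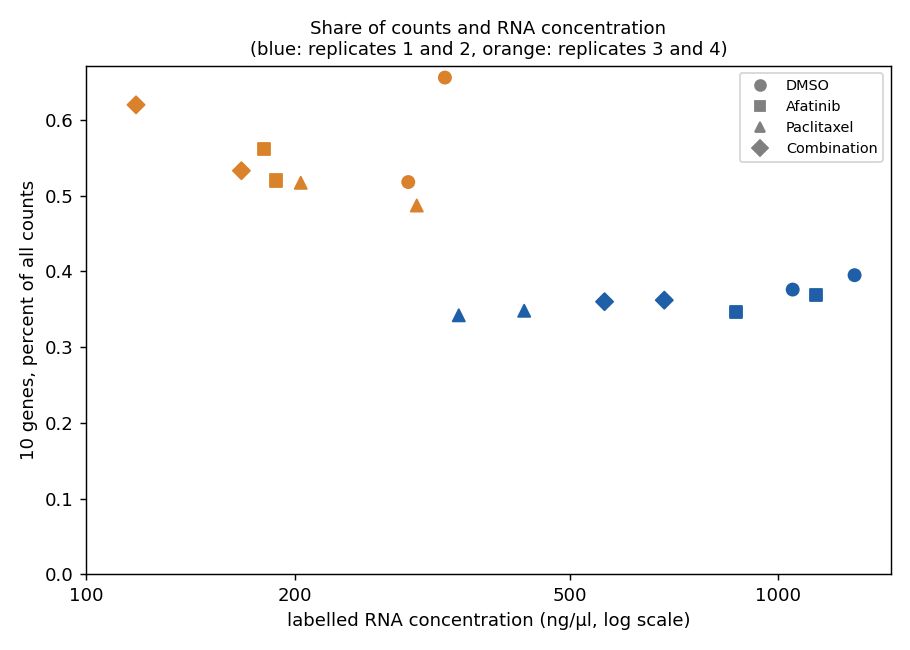
Share of all counts taken by the 10 ER chaperone genes (y axis, percent, from 0) against the labelled RNA concentration (x axis, ng/µl, log scale) in 16 libraries; shapes are treatments, blue is replicates 1 and 2 and orange replicates 3 and 4. Every orange point (0.487 to 0.656%) lies above every blue point (0.342 to 0.395%).

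Other genes of ER folding and quality control were taken as 6 lists, with 69 genes tested in all. With afatinib 13 were lower and 2 higher (median −0.13), with paclitaxel 7 lower and 0 higher (−0.071), and in the combination 12 lower and 6 higher (−0.014). The lower calls are 18.8, 10.1 and 17.4% of the 69, beside 10.1, 11.9 and 19.5% of all genes, so with paclitaxel and in the combination they do not exceed the background. Of 11 further co-chaperones, 2 were lower and 1 higher with afatinib. MANF, a co-factor of HSPA5 that is secreted under ER stress, fell by 26.6% with afatinib (−0.45 ± 0.082, adjusted p = 0.000495), and it was −0.28 with paclitaxel and −0.40 in the combination, both called. CRELD2 was −0.21 ± 0.072, adjusted p = 0.0383 with afatinib. Of 18 genes of ER-associated degradation, the pathway of HERPUD1, 7 were lower and 0 higher with afatinib, led by EDEM1 (−0.29 ± 0.059, adjusted p = 0.00105), which marks misfolded glycoproteins for degradation, and VCP (−0.29 ± 0.06, adjusted p = 0.00124), the ATPase that pulls chains into the cytosol. EDEM3 was −0.43 ± 0.068, adjusted p = 5.12e-05 with paclitaxel and −0.58 ± 0.068, adjusted p = 2.17e-07 in the combination, where the list counted 5 lower and 2 higher. Of 13 oxidative folding genes 2 were lower with afatinib, TXNDC11 (−0.36 ± 0.06, adjusted p = 0.000133) and PDIA5 (−0.31 ± 0.074, adjusted p = 0.0046). Of 14 genes of the translocon and signal peptide processing, SSR3, a subunit of the translocon-associated complex, was lower with afatinib (−0.56 ± 0.08, adjusted p = 2.45e-05). Of 6 genes of the lectin cycle that CALR serves, 2 were lower with paclitaxel, UGGT1 (−0.29 ± 0.073, adjusted p = 0.00536) and MOGS (−0.35 ± 0.09, adjusted p = 0.00791), and 0 with afatinib. Of 7 prolyl isomerases, PPIB was lower (−0.31 ± 0.083, adjusted p = 0.0106) and FKBP7 higher (0.49 ± 0.096, adjusted p = 0.000737) with afatinib. The combination against afatinib counted 15 higher and 3 lower of the 69, or 21.7 and 4.35%, beside 13.1 and 14.3% of all genes. Their interaction values were above 0 in 62 of 69 with a median of 0.17, none called by edgeR and 20 at an unadjusted p under 0.05, close to the chaperones' own median of 0.23, so a value above 0 is not particular to the 10 genes.

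The sensors of the unfolded protein response moved in different directions. ERN1, which encodes IRE1, stood at 17.6, 15.9, 18.5 and 23.9 CPM in DMSO replicates 1 to 4 and 21.6, 21.8, 25.5 and 29.4 CPM with paclitaxel. It rose with paclitaxel (0.37 ± 0.077, adjusted p = 0.000938) and in the combination (0.41 ± 0.077, adjusted p = 0.000115) and was −0.0012 with afatinib (−0.16 to 0.16). EIF2AK3, which encodes PERK, fell with paclitaxel (−0.35 ± 0.12, adjusted p = 0.0357) and in the combination (−0.40 ± 0.12, adjusted p = 0.00879). ATF6 fell with paclitaxel (−0.25 ± 0.071, adjusted p = 0.012) and was −0.12 with afatinib and −0.12 in the combination, neither called. Of the 7 sensors and factors tested, 2 were lower with afatinib, and 3 were lower and 1 higher with paclitaxel and in the combination alike. Downstream of PERK, ATF4 fell with afatinib (−0.27 ± 0.085, adjusted p = 0.0275). DDIT3, which encodes the transcription factor CHOP, rose in all treatments, by 0.52 with afatinib (adjusted p = 0.00266), 0.72 with paclitaxel (8.57e-05) and 0.92 in the combination (8.75e-07). CHAC1, a target of that branch, fell in all 3, most with paclitaxel (−1.63 ± 0.12, adjusted p = 9.45e-10). Of the 8 genes of this branch tested, 5 were lower and 1 higher with afatinib and 3 lower and 1 higher with paclitaxel and in the combination. In the interaction 3 of these 8 were called higher, CHAC1 (1.02), ASNS (0.91) and TRIB3 (0.40), beside 0.389% of all genes. The lower and higher calls of all genes were 10.1 and 9.00% with afatinib, 11.9 and 8.65% for paclitaxel and 19.5 and 18.5% in the combination. With 7 and 8 genes these lists are short, and no difference from the chaperones was tested.

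Chaperones of other compartments were set beside those of the ER. Of 10 cytosolic chaperones tested, 3 were higher and 1 lower with paclitaxel, and 6 were higher and 0 lower in the combination, with medians of 0.14 and 0.22, where the ER chaperones had 4 and 3 lower and medians of −0.17 and −0.075. Over all genes, 9.00% were called higher and 10.1% lower with afatinib, and 8.65 and 11.9% with paclitaxel. In the combination these shares were 18.5 and 19.5%. HSPH1, the cytosolic exchange factor of Hsp70, rose in the combination (0.54 ± 0.063, adjusted p = 1.91e-07), where its ER counterpart HYOU1 was −0.21. HSP90AA1, the inducible cytosolic Hsp90, rose as well (0.46 ± 0.06, adjusted p = 8.72e-07), where HSP90B1 of the ER was 0.015. BAG3, a co-chaperone of Hsp70, rose with paclitaxel (0.41 ± 0.061, adjusted p = 2.60e-05) and in the combination (0.49 ± 0.061, adjusted p = 4.90e-07). With afatinib the cytosolic list had 3 lower and 0 higher, among them HSPA8, the constitutive Hsp70 (−0.37 ± 0.077, adjusted p = 0.00143). Of 7 mitochondrial chaperones and proteases tested, 2 were lower with afatinib, 1 higher with paclitaxel, and 1 higher and 2 lower in the combination, HSPD1 being the higher one (0.19 ± 0.058, adjusted p = 0.0106). Between the concentration sets the cytosolic list had a median of −0.053 and the mitochondrial list −0.21, against 0.69 for the ER chaperones. The 6 other ER lists had 58 of 69 genes higher and 7 lower there (84.1 and 10.1%), with a median of 0.53. Over all genes 36.2% were higher and 33.3% lower. A higher level in replicates 3 and 4 is thus not particular to the 10 genes. The difference between the lists was not tested.

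**Figure D5:**
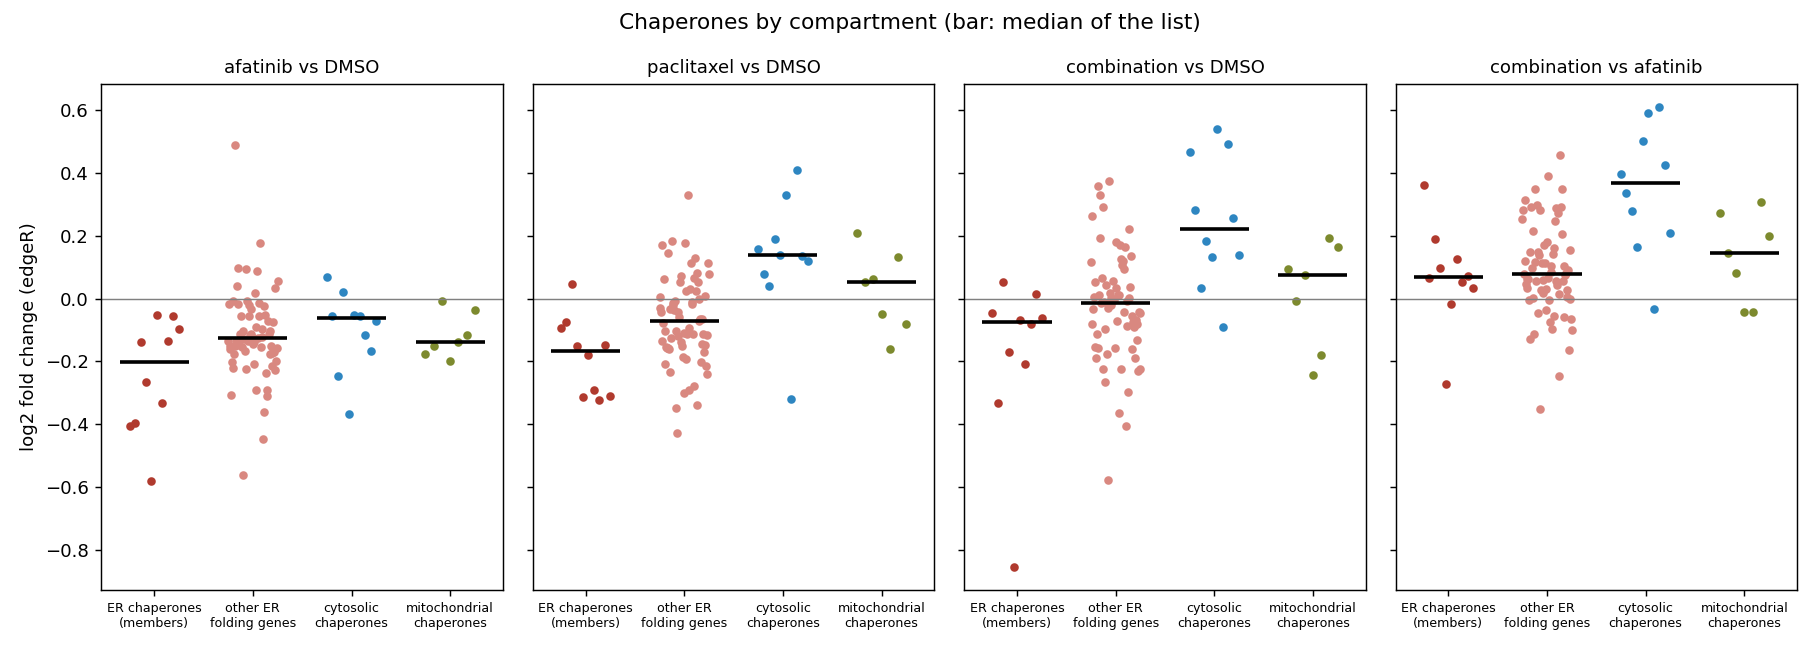
Log2 fold changes (y axis) of single genes in 4 lists (x axis) for 4 comparisons, with bars at the list medians. In the combination against DMSO the ER chaperone bar is at −0.075 and the cytosolic bar at 0.22. Against afatinib alone 9 of 10 cytosolic chaperones were called higher and 1 of 10 ER chaperones, beside 13.1% of all genes.

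Genes with a pattern like that of HSPA5 were ranked by the root mean square difference of log2 CPM over the 16 libraries, each gene centred within the concentration sets, among 9708 genes. The closest was RP11-39C10.1, at 0.084, which is the processed pseudogene 92.6% identical to HSPA5 and may hold its reads. GLIPR1 and PPIB (0.125 each), FXYD5 (0.129) and ATP13A2 (0.137) followed, against a median of 0.287 over the ranked genes and 0.256 for HSPA5's own distance from a flat line. PPIB, a prolyl isomerase of the ER, is the one of these in the lists above. These genes were chosen on the same 16 libraries, so their changes are not given as results. Among the 10 chaperones HERPUD1 was closest to HSPA5 at 0.195 and DNAJB9 farthest at 0.364. The 5 genes above are the closest of 9708, so their smaller distances do not show that the chaperones depart from HSPA5.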

How the data were processed

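The authors deposited raw counts per gene, with a gene length column, for 16 libraries. Per the submitters' processing notes the tools were STAR 2.7.5b, with hg38, and featureCounts of Subread 2.0.1. The strand setting and the annotation are not given in the sources used here. The authors also deposited a log2 table corrected for RNA concentration, used here only as an alternative, with limma 3.58.1. The 171 genes without a symbol (at most 0.0462% of the counts of a library) were kept.

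Counts were tested with edgeR 4.0.16 in R 4.3.3: TMM factors, filterByExpr (minimum count 10, minimum total 15), the robust quasi-likelihood F-test over all 16 libraries with treatment and concentration set as terms, and Benjamini-Hochberg adjustment over the 17991 genes tested. A gene was called at an adjusted p under 0.05. Errors of log2 changes are standard errors, and intervals are 95% intervals from the same fit. The common biological coefficient of variation was 7.41%. Tested on simulated data for afatinib against DMSO, the fit called 15 of 50 genes changed 1.2-fold and 49 of 50 changed 1.5-fold, with 9 other genes called of 17761. CPM per kilobase divides by the deposited length. Within-set values come from fits of replicates 1 and 2 or 3 and 4 alone, for which only 2 libraries per group remain.

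The members and lists were chosen with earlier results of these data known, and afatinib against paclitaxel was added after the values were seen. Besides the members, up to 3 called genes with the smallest p in each direction could be named per list and comparison, with ERN1, EIF2AK3, ATF6, ATF4 and DDIT3 always, and the 5 genes nearest to HSPA5 by log2 CPM (average of at least 3). Of 142 list symbols 135 were matched, 5 of them by an older symbol, and 126 were tested. DERL3, XBP1, ATF6B, HSPA1B, TYROBP, HBB and DCN were not analysed here. Gene positions are those of GENCODE 29 (hg38), and promoters come from RefSeq (GRCh38.p14). Copies were sought with BLAST 2.17.0, from 85% identity over 500 bases.

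Libraries of different groups with the same replicate number deviated together (r from 0.37 to 0.70 over 24 pairs, median 0.59), but those of the same set with another number did so nearly as much (0.38 to 0.67, median 0.50). The correlation thus belongs largely to the set. The numbers were treated as a possible pairing because every same-number pair was over 0.1, and the labels do not state one. No pair of libraries agreed within sampling noise. The alternatives were no concentration term, the replicate number as a block, the logarithm of the concentration as a covariate, each set alone, DESeq2 size factors, DESeq2 1.42.0, no filter, the authors' log2 table, and leaving out each library.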

Additional observations from a re-analysis of the deposited data

How the results depend on the processing

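Of the 10 chaperones, 4 were called for afatinib, 4 for paclitaxel, 3 for the combination, 2 in the combination against afatinib, 4 against paclitaxel, 4 between the single drugs and 0 in the interaction. With no concentration term each of these counts was 0, beside 0 (interaction) to 12.8% (combination against DMSO) of all genes. The difference between the sets then stays in the residual spread by construction. In replicates 3 and 4 alone, with fewer samples, 2, 0, 2, 1, 1 and 1 were called in that order, and in replicates 1 and 2 alone 0 against afatinib, 1 against paclitaxel and 1 between the single drugs. Over all genes the shares were 2.9, 4.37, 17.5, 11.1, 7.13 and 15.3% in replicates 3 and 4. The 3 shares in replicates 1 and 2 were 14.1, 11 and 20.2%. On the authors' log2 values, 2 were called with afatinib, 0 against afatinib, 0 against paclitaxel and 1 between the drugs, where DNAJC3 turned to 0.026 (adjusted p = 0.889). Beside these stood 6.16, 11.7, 12.1 and 24.1% of all genes. With paclitaxel PDIA4, CALR and HYOU1 were called on these values, beside 6.38%, and in the combination DNAJB9, HERPUD1 and HYOU1, beside 22.6%. With the log2 concentration as a covariate 6 were called for afatinib, 6 for paclitaxel and 8 for the combination, all lower, beside 12.8, 30.1 and 39.0% of all genes, and 1 against afatinib and 2 against paclitaxel, beside 25.9 and 16.8%, and HSP90B1 (−0.34) and DNAJC3 (−0.27) turned lower in the combination. For the table and the covariate the cause was not tested.

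With the replicate number as a block, a pairing that the data show only weakly beyond the set, the calls added were HSPA5 with afatinib, PDIA6 with paclitaxel, HSPA5 against afatinib, HSP90B1 against paclitaxel, HSPA5 and PDIA4 between the drugs, and HYOU1 as 1 interaction call, and the block changed no other call of the 10 genes. The interaction count was 3 with no filter and 1 with DESeq2, beside 1.27 and 2.04% of all genes. Leaving out 1 library gave 3 to 6 calls for afatinib, 3 to 6 for paclitaxel, 2 to 4 for the combination, 1 to 2 against afatinib, 2 to 5 against paclitaxel, 1 to 5 between the drugs, 0 to 3 in the interaction and 9 between the sets. Over all genes these fits called 13.7 to 20.1, 16.2 to 21.4 and 32.7 to 37.9% against DMSO in that order. The shares were 21.9 to 28.5% against afatinib, 18.2 to 25.5% against paclitaxel and 30.1 to 37% between the drugs. For the interaction and the sets they were 0.186 to 1.53% and 66.6 to 69.3%. DESeq2 size factors ended 1 call (CALR between the drugs, adjusted p = 0.053).

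Over all genes, 3432 were called for afatinib, 3694 for paclitaxel and 6830 for the combination, and 380, 625 and 2310 with no concentration term. Against afatinib, against paclitaxel and between the drugs the counts were 4935, 4347 and 6479, and 1143, 768 and 1654 with no term. Afatinib gave 1245 in replicates 1 and 2, 527 in replicates 3 and 4, 1108 on the authors' table. Paclitaxel gave 1779, 796 and 1148 there, and the combination 4067 on that table, 3181 in replicates 3 and 4. The interaction went from 159 genes to 0 with no term, 501 with the block, 479 with no filter, 367 with DESeq2, 26 with the covariate and 34 to 279 without 1 library. Depth limits DNAJB9 most, with 217 to 670 counts a library.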
